A study of Rattus norvegicus with 20 samples.

Results

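The genes described here encode the protein subunits of the mitochondrial ribosome. They were the entries of the deposited read and FPKM table whose protein name placed a 39S, 28S, large-subunit or small-subunit ribosomal protein in the mitochondrion, and 79 of 15503 genes met this rule. Of these, 30 encode large-subunit proteins with a bacterial counterpart, 18 large-subunit proteins found only in mitochondria, 16 small-subunit proteins with a bacterial counterpart and 11 small-subunit proteins found only in mitochondria. Another 3 are second loci that carry the same protein name as Mrpl40, Mrpl41 or Mrpl42. The last is Mrps36, once counted as a ribosomal protein and now assigned to the 2-oxoglutarate dehydrogenase complex. The members lie on 18 chromosomes of the rat build mRatBN7.2, and all 79 passed the filter on low counts, so none was dropped.

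Cultures labelled as neonatal rat cardiomyocytes, which are heart muscle cells, were kept for 72 h in 4 groups of 5 libraries. They received PBS, 100 nM histidine, 1 µM doxorubicin, or 100 nM histidine together with 1 µM doxorubicin. Histidine is an amino acid, and doxorubicin is an anthracycline drug that blocks topoisomerase II and is toxic to heart muscle. No label gives the strain, the age in days or whether each library is a culture of its own. The p-values thus rest on the spread among these libraries, part or all of which may be technical. The wider study deals with histidine in plasma as a marker of atrial fibrillation that recurs.

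Mitochondria carry a small genome of their own, and the mitochondrial ribosome translates its few mRNAs, all of which encode subunits of the respiratory chain or of ATP synthase. Its ribosomal RNAs come from the mitochondrial genome, whereas every one of its proteins is encoded in the nucleus, made in the cytosol and imported. The small subunit reads the mRNA and the large subunit forms the peptide bond, and heart muscle, which depends on oxidative phosphorylation, needs both to renew its respiratory chain.

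Total counts per library ran from 53246205 to 83624651. Doxorubicin replicate 4 stood apart from every other library, and the doxorubicin results on the members are therefore given with and without it. In that library the level of a gene relative to the mean of the other 4 doxorubicin libraries fell with transcript length (Spearman's rho = -0.58 across 13619 genes, which share the library and are not independent replicates). In the other 19 libraries, each compared in the same way with the rest of its group, this rho ran from -0.32 to 0.46. The values from 0.29 to 0.46 were those of the other 4 doxorubicin libraries, which were compared with a mean that holds replicate 4. In the groups without that library the rho ran from -0.32 to 0.21. Markers of heart muscle, 13 of 15 of them measured, summed to between 812 and 948 CPM (counts scaled to the library size by TMM) in the PBS libraries and to between 145 and 260 CPM with doxorubicin. Fibroblast markers, 11 genes led by collagens and fibronectin, summed to between 103000 and 108000 CPM with PBS and to between 65300 and 98300 CPM with doxorubicin, and macrophage and leukocyte markers, 10 genes, went from between 2040 and 2110 CPM to between 169 and 252 CPM. Genes of dividing cells, 8 in all, went from between 702 and 742 CPM to between 53.8 and 112 CPM, the 260, 65300, 252 and 53.8 CPM being those of doxorubicin replicate 4. The medians of the 5 doxorubicin libraries were 171, 88600, 184 and 80.7 CPM in the same order of lists. Smooth muscle and pericyte markers, 7 of 8 measured, had medians of 4020 CPM with PBS and 2730 CPM with doxorubicin, replicate 4 having 3730 CPM. Endothelial markers, 6 of 7 measured, had 17.4 and 16.0 CPM. The medians of the first 4 lists were 815, 95900, 2020 and 717 CPM with histidine. They were 174, 93400, 177 and 66.6 CPM with both compounds. In no list was a measured marker without reads in every library of a group. In cultures of mixed cells, fewer cells of a type and less RNA per cell cannot be told apart, and the part of these shifts in the results below was not tested.

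In the PBS group the members spanned a wide range of levels per transcript length. The median of their mean FPKM (fragments scaled to transcript length and library depth) was 12.3, against 6.15 over the 15449 genes tested, and 66 of the 79 lay between 5 and 30 FPKM. Large-subunit members had a median of 13.9 FPKM and small-subunit members one of 10.3 FPKM. Mrpl17, a large-subunit protein with a bacterial counterpart near the peptide exit, had the highest level, at 73.0 ± 4.79 FPKM (SD, n = 5). It was followed by Mrpl20 at 36.2 ± 0.824 FPKM, Mrpl43 at 30.7 ± 1.16 FPKM and Mrpl27 at 30.5 ± 1.92 FPKM, and the last 2 did not differ beyond their spread. Mrpl27 lies within the span of Lrrc59 on the same strand, a gene with a mean of 19985 reads. Whether reads were split between these 2 genes was not tested. The lowest were 2 of the second loci, that of Mrpl40 on chromosome 15 at 0.846 FPKM and Mrpl41l1 on chromosome 8 at 0.309 FPKM, and then Mrpl57 at 2.73 FPKM and Mrpl48 at 2.80 FPKM.

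Most members were steady within a group. The median coefficient of variation of the CPM over the 5 libraries was 7.2% with PBS, 8.71% with histidine and 9.83% with both compounds. It was 27.6% with doxorubicin and 9.16% among the doxorubicin libraries other than replicate 4. Outside the doxorubicin group, 7 members exceeded 40% in at least 1 group, and these were Mrpl14, Mrps6, Mrps17, Mrps24, Mrps36 and the 2 weakly expressed second loci Mrpl41l1 and Mrpl40 on chromosome 15. Mrps6 had 482, 660 and 535 reads in PBS replicates 1, 3 and 5 but 2 and 21 reads in replicates 2 and 4. On the same strand, Slc5a3 overlaps part of the Mrps6 gene, and the entry for Kcne2 covers all of it. Mrpl14, which lies within the span of the mitochondrial alanyl-tRNA synthetase gene Aars2 on the same strand, ran from 84 to 861 reads among the PBS libraries. The libraries did not mark the strand, and 28 members overlap another gene of the table, 22 of them only on the opposite strand, so reads of such neighbours cannot be told apart.

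Summed over the subunits in CPM and leaving doxorubicin alone aside, the mean levels were highest with histidine and lowest with both compounds. Over all 79 members, every histidine library (1514 to 1663 CPM) lay above every library with both compounds (1347 to 1489 CPM). The PBS libraries ran from 1480 to 1529 CPM and overlapped each of these ranges. This order did not hold in full in FPKM. There histidine was again highest, at a mean of 1147 FPKM, but PBS had 1074 FPKM and both compounds 1085 FPKM. The FPKM ranges of histidine (1117 to 1219) and of both compounds (1003 to 1135) overlapped. The 48 large-subunit genes summed to 1006 ± 20.1 CPM with PBS (SD, n = 5), 1049 ± 42.3 CPM with histidine and 976.1 ± 37.4 CPM with both. The 27 small-subunit genes summed to 476.2 ± 13.6 CPM, 496.1 ± 19.9 CPM and 452.8 ± 25.2 CPM in the same order. With doxorubicin the large subunit summed to 1157 ± 331 CPM, of which replicate 4 gave 1747 CPM, and the remaining 4 libraries averaged 1010 ± 34.2 CPM. The small subunit summed to 535.0 ± 146 CPM, with 791.9 CPM in replicate 4 and 470.7 ± 31.8 CPM in the others. The doxorubicin libraries other than replicate 4 thus overlapped the PBS libraries in both sums, while replicate 4 lay above all 19 other libraries. The ratio of the summed FPKM of the large to that of the small subunit was 2.29 ± 0.106 with PBS, 2.27 ± 0.0718 with histidine, 2.30 ± 0.0771 with doxorubicin and 2.34 ± 0.101 with both, a difference smaller than the spread between libraries. No test was made on these sums.

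**Figure D1:**
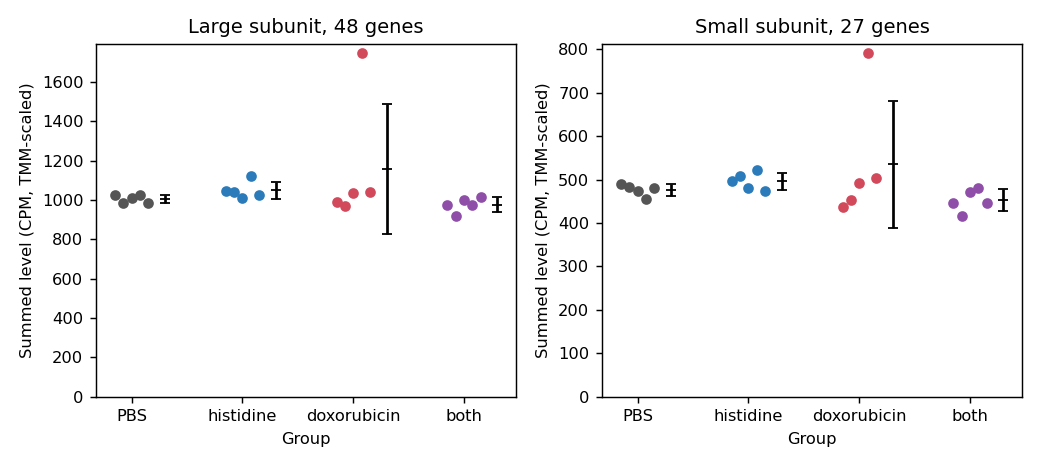
Summed level of the large-subunit genes and of the small-subunit genes (TMM-scaled CPM, vertical axes from 0) in each library by group, where both stands for histidine and doxorubicin; each point is 1 library and the bar is the mean with the SD of the 5 libraries. Doxorubicin replicate 4, at 1747 CPM and 791.9 CPM, lies above every other library in each panel.

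In doxorubicin replicate 4 shorter transcripts were higher. Most members were higher too, with a median above that of all genes in each length class given below, and the cause was not tested. Of the 79 members, 67 had their highest doxorubicin level in that library, and their median difference from the mean of the other 4 was 0.67 on the log2 scale, against -0.0025 for all genes. In the other 19 libraries the corresponding median of the members was between -0.28 and 0.09. The other doxorubicin libraries, compared with a mean that holds replicate 4, had -0.28 to -0.1. Libraries of the groups without replicate 4 had -0.098 to 0.09. Transcript lengths implied by the ratio of reads to FPKM had a median of 1332 bases for the members and 2806 bases for all genes tested. Among the members with a mean of at least 1 CPM, the 15 under 1000 bases had a median excess of 1.16 (log2), where the 863 genes of that length had 1.06. The 47 members of 1000 to 2000 bases had 0.67, against 0.45 for 3058 genes, and the 15 longer members had 0.52, against -0.15 for 9698 genes. Mrpl33, with an implied length of 646 bases, was 2.93 higher on the log2 scale in that library than in the others, and Mrps18c 2.28, Mrpl50 2.13 and Mrpl54 1.98 higher. The 223 genes named as cytosolic ribosomal proteins moved with it too, since the median doxorubicin effect of the 222 tested was 0.43 with all libraries and -0.04 without replicate 4.

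**Figure D2:**
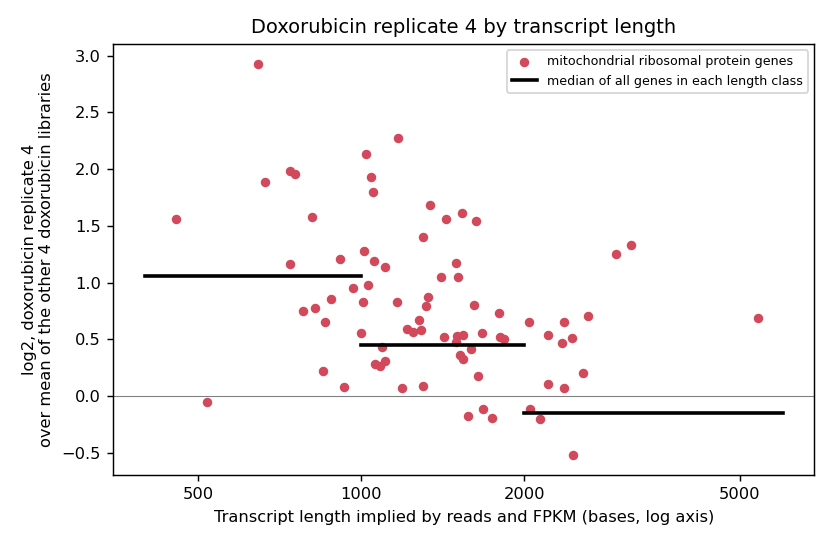
Level in doxorubicin replicate 4 relative to the mean of the other 4 doxorubicin libraries (log2 difference of CPM with 0.5 added, vertical axis) against the transcript length implied by reads and FPKM (bases, log axis) for every member but Mrps17; black lines are the medians of all genes under 1000, 1000 to 2000 and over 2000 bases, at 1.06, 0.45 and -0.15. Most points lie above 0, and the highest is Mrpl33 at 2.93.

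Doxorubicin alone against PBS asks how the drug changes these genes. With all libraries, 12 of the 79 members rose and 2 fell (edgeR's quasi-likelihood test, adjusted p under 0.05), which is 17.7% of the members where 43.2% of all 15449 genes were called. Over all genes 21.7% rose and 21.5% fell. The median log2 fold change was 0.20 for the members and 0.05 for all genes. Without doxorubicin replicate 4, 6 members rose and 10 fell, 20.3% in all, against 47.2% of all genes, of which 22.9% rose and 24.4% fell, and the medians were -0.03 and 0.01. Leaving out PBS replicate 3 instead gave 7 that rose and 1 that fell. Of the 14 calls, 8 were kept without doxorubicin replicate 4, 6 were lost and 8 others were gained, all 8 of them lower. By the range of the libraries, 7 members were higher in every doxorubicin than in every PBS library (13.6% of all genes) and 0 were lower in every one (17.5% of all genes). These ranges hold doxorubicin replicate 4. Without it the 7 were still higher, while Mrpl12, Mrpl18, Mrpl21, Mrps9, Mrps31 and Mrps35 lay below every PBS library. The share of all genes was not counted without that library.

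**Figure D3:**
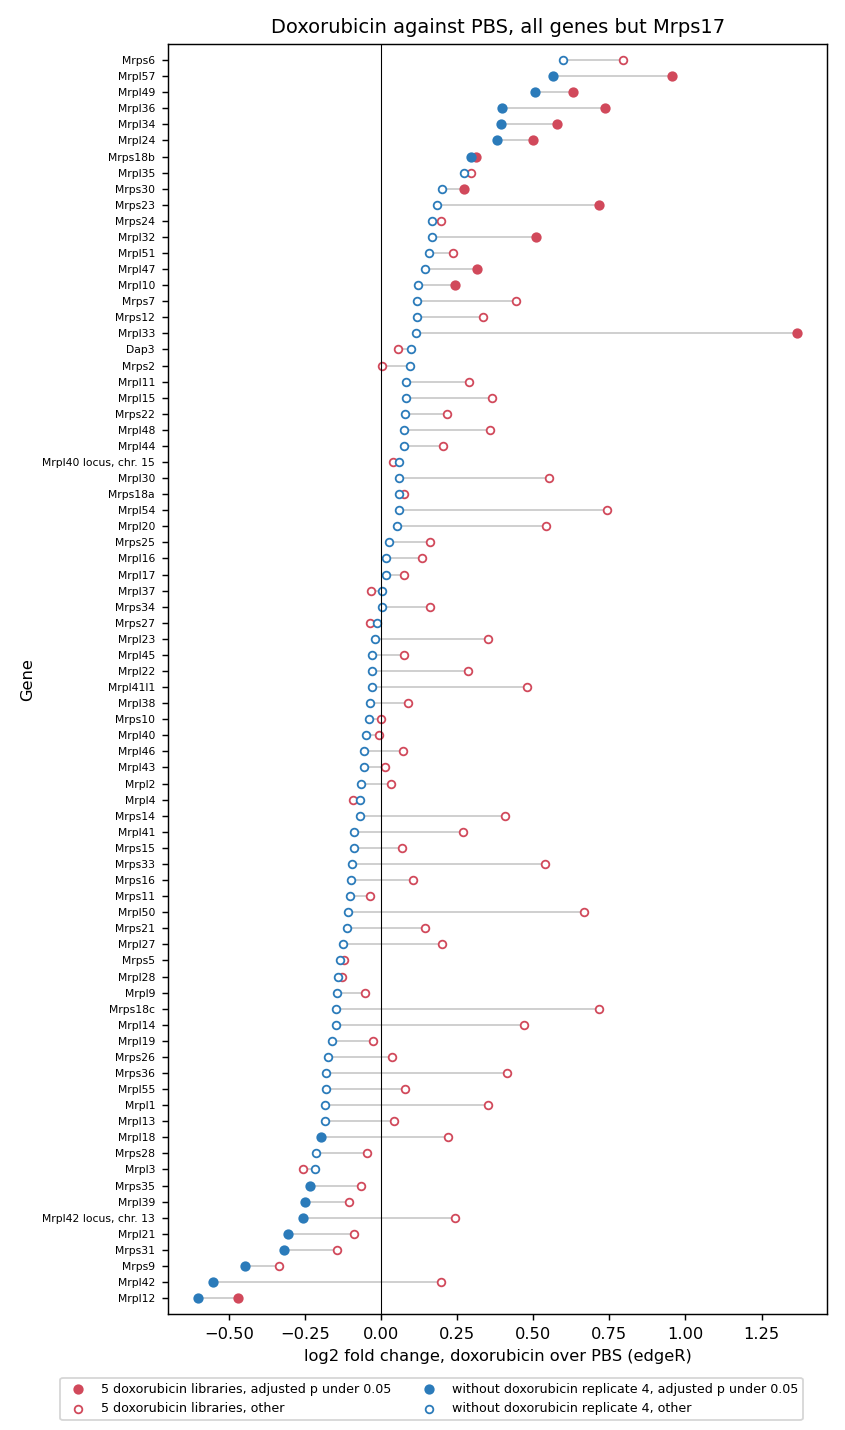
Log2 fold change of doxorubicin over PBS (horizontal axis) for every member but Mrps17, with all 5 doxorubicin libraries (red) and without replicate 4 (blue), sorted by the latter; filled points passed edgeR's test at an adjusted p under 0.05, and a grey line joins the 2 values of a gene. Red points lie mostly right of their blue partner, by the most for Mrpl33, at 1.37 and 0.11.

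The members that rose and kept their call were all but 1 of the large subunit. Several overlap a gene on the opposite strand, whose reads these libraries cannot tell apart. Mrpl34 shares all its 1867 bases with Abhd8 (mean of 2398 reads), and Mrpl49 shares 6534 bases with Syvn1 (3560 reads). Mrpl24 and Mrpl57 share 624 and 151 bases with such neighbours. The part of these neighbours in the rises was not tested. Mrpl49, a large-subunit protein found only in mitochondria, had 35.8, 39.2, 33.8, 36.3 and 34.8 CPM in PBS replicates 1 to 5 and 49.8, 51.6, 51.5, 74.4 and 51.2 CPM with doxorubicin. Every doxorubicin library lay above every PBS library. The log2 fold change was 0.63 ± 0.09 (SE, adjusted p = 1.63e-05), and 0.50 ± 0.06 (adjusted p = 7.29e-07) without replicate 4. Mrpl24, which binds early in the assembly of the large subunit, had 20.9, 20.2, 19.2, 21.7 and 23.9 CPM with PBS and 26.2, 29.4, 28.4, 39.3 and 26.4 CPM with doxorubicin. Here too the groups did not overlap, and the log2 fold change was 0.50 ± 0.10 (adjusted p = 0.000263), or 0.38 (adjusted p = 9.56e-05) without replicate 4.

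Mrpl34, Mrpl36 and Mrpl57 are small proteins of the large subunit, the first 2 with bacterial counterparts. Mrpl34 had 8.83 to 9.74 CPM with PBS and 10.8, 12.5, 13.3, 20.5 and 12.03 CPM with doxorubicin, and its log2 fold change went from 0.58 (adjusted p = 0.00107) to 0.39 (adjusted p = 0.000352) without replicate 4. Mrpl36 had 9.33 to 12.6 CPM with PBS and 14.3, 15.2, 14.3, 34.9 and 16.3 CPM with doxorubicin. Its log2 fold change was 0.74 (adjusted p = 0.00578), and 0.40 (adjusted p = 0.00628) without replicate 4. Mrpl57 had 7.14 to 10.1 CPM with PBS and 15.1, 11.5, 13.1, 33.3 and 12.5 CPM with doxorubicin, so that its log2 fold change of 0.96 (adjusted p = 0.0020) became 0.56 (adjusted p = 0.00114). In each of the 3 the groups did not overlap and replicate 4 was the highest library. Mrps18b, a small-subunit protein found only in mitochondria, rose by 0.31 ± 0.08 on the log2 scale (adjusted p = 0.00349) and by 0.29 without replicate 4 (adjusted p = 0.00557), from 22.6 ± 1.04 CPM to 28.01 ± 2.80 CPM (SD, n = 5).

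Mrpl12 fell. The protein forms the flexible stalk of the large subunit that recruits translation factors, and it has also been described as a partner of the mitochondrial RNA polymerase. It had 48.1, 40.4, 45.9, 45.6 and 48.7 CPM with PBS and 29.3, 31.9, 28.04, 44.5 and 31.3 CPM with doxorubicin. In total 4 of the 5 doxorubicin libraries lay below every PBS library, and replicate 4 lay among them. The log2 fold change was -0.47 ± 0.11 (SE, adjusted p = 0.00113), and -0.60 ± 0.08 (adjusted p = 2.12e-06) without replicate 4.

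The other call of a fall, Mrps17, rests on reads that the table divided between 2 genes. Mrps17, a small-subunit protein with a bacterial counterpart (chromosome 12, 26948730 to 26951737, minus strand), had 1194, 0, 424, 0 and 1003 reads in PBS replicates 1 to 5 and 0, 0, 0, 54 and 0 reads with doxorubicin. With histidine it had 0, 1052, 46, 42 and 0 reads, and with both compounds 40, 115, 0, 1600 and 0 reads. It was thus at 0 in 10 of 20 libraries and above 400 reads in 5, with both kinds present in 3 of the 4 groups. An unnamed gene model on the same strand covers the whole of Mrps17. It held 29 reads against 1600 of Mrps17 in replicate 4 with both compounds, but 1118 against 424 in PBS replicate 3. The sum of the 2 was between 1271 and 1542 reads with PBS and between 658 and 1695 reads with doxorubicin, the lowest being replicate 4. Tested as 1 gene, the sum had a log2 fold change of -0.02 ± 0.18 (adjusted p = 0.95), where Mrps17 alone had an adjusted p of 0.0436, and the direction of Mrps17 is therefore uncertain.

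**Figure D4:**
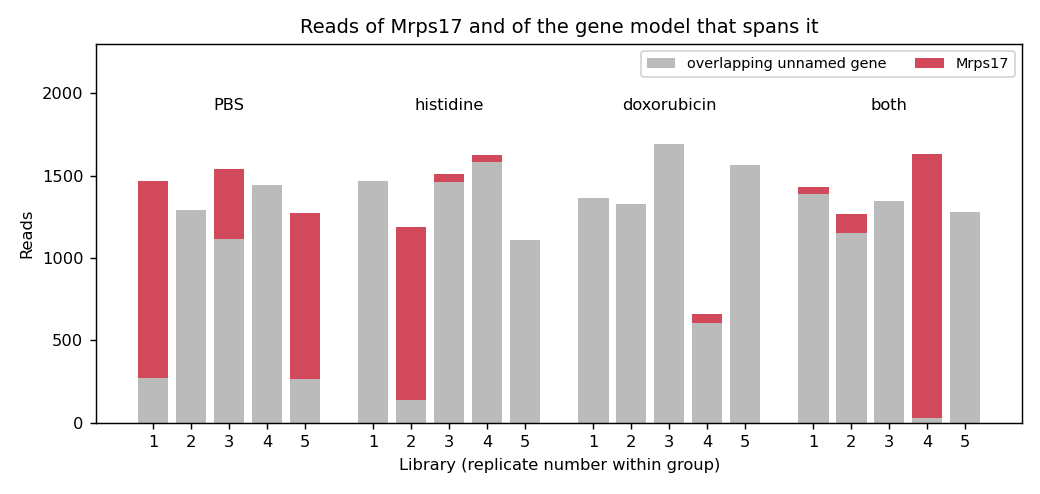
Reads (vertical axis) assigned to Mrps17 (red) and to the unnamed gene model that spans it (grey), stacked, in each of the 20 libraries by replicate number and group, where both stands for histidine and doxorubicin. The share of red changes from library to library within a group, while the height stays between 1107 and 1695 reads in all but doxorubicin replicate 4, at 658.

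The 6 calls that were lost without doxorubicin replicate 4 were all rises. Mrpl33, a small protein of the large subunit with a bacterial counterpart, had 8.65 to 10.5 CPM with PBS and 8.78, 9.78, 10.96, 80.4 and 11.1 CPM with doxorubicin. Its log2 fold change was 1.37 ± 0.47 (adjusted p = 0.0227) and 0.11 ± 0.11 (adjusted p = 0.410) without replicate 4. Babam2, a gene of a DNA repair complex whose span on the same strand holds Mrpl33, had 3599 reads in replicate 4 and 1000 to 1309 in the other doxorubicin libraries. Mrps23, a small-subunit protein found only in mitochondria, had 20.2 to 23.3 CPM with PBS and 22.1, 20.3, 28.3, 78.8 and 26.6 CPM with doxorubicin, and its log2 fold change went from 0.72 (adjusted p = 0.0305) to 0.18 (adjusted p = 0.0934). For Mrpl32, a zinc-binding protein that is cleaved before it joins the large subunit, it went from 0.51 (adjusted p = 0.0346) to 0.17 (adjusted p = 0.0855). Mrps30 and Mrpl47, which both belong to the large subunit, went from 0.27 to 0.20 and from 0.32 to 0.14, and Mrpl10, the base of the stalk that carries Mrpl12, from 0.24 to 0.12. None of these 3 passed without replicate 4, with adjusted p values of 0.0561, 0.112 and 0.106. The calls of Mrps23, Mrpl32, Mrps30, Mrpl47 and Mrpl10 were also lost when PBS replicate 3 was left out in its place, as were those of Mrps23 without PBS replicate 1, 4 or 5, of Mrpl32 without PBS replicate 2, 4 or 5, of Mrpl47 without PBS replicate 2 or 5 and of Mrpl10 without PBS replicate 1, 2 or 4 or doxorubicin replicate 1.

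The 8 calls gained without that library were falls of modest size. Mrps9, a small-subunit protein with a bacterial counterpart, had 12.3 to 13.2 CPM with PBS and 7.39, 9.62, 8.88, 13.1 and 11.6 CPM with doxorubicin, and its log2 fold change was -0.45 (adjusted p = 0.00984) without replicate 4 and -0.34 (adjusted p = 0.0610) with it. Mrpl18 had 21.8 to 23.0 CPM with PBS and 18.8, 20.1, 21.2, 52.6 and 18.3 CPM with doxorubicin. Its log2 fold change was -0.20 (adjusted p = 0.00837) without replicate 4 and 0.22 (adjusted p = 0.414) with it, so the sign turned with 1 library. Mrpl21 was at -0.31, Mrpl39 at -0.25 and Mrps35 at -0.23 without replicate 4, with adjusted p values of 0.00867, 0.0102 and 0.0170. Mrps31 was at -0.32, Mrpl42 at -0.55 and the second locus of Mrpl42 on chromosome 13 at -0.26. The last 2 carry the same protein name, and the counting could have split reads between them, so both are uncertain.

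**Figure D5:**
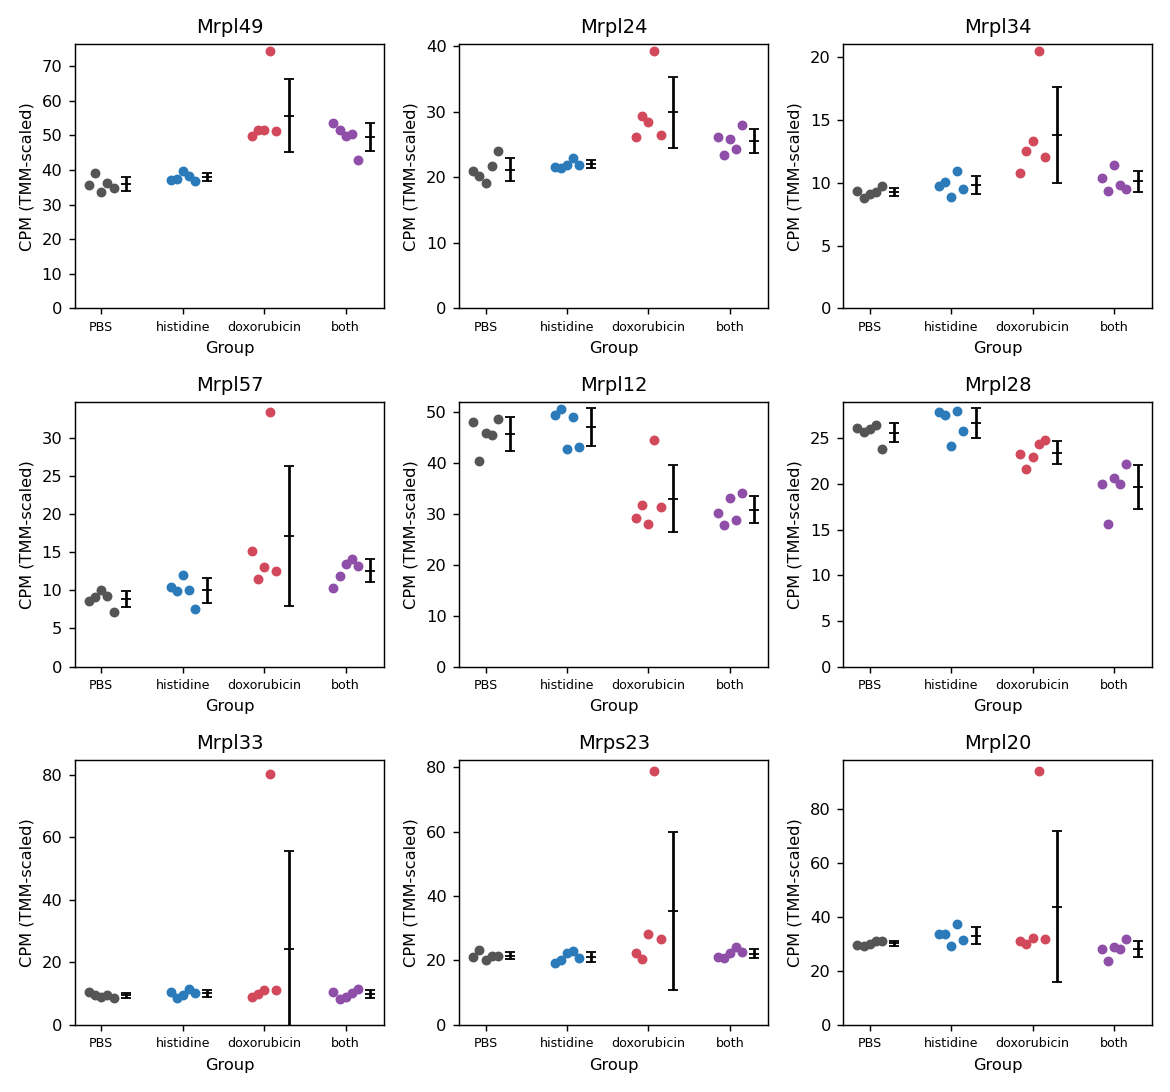
Levels of 9 members (TMM-scaled CPM, vertical axes from 0) in each library by group, where both stands for histidine and doxorubicin; points are libraries and bars the mean with the SD of the 5 libraries. Mrpl49 and Mrpl24 are higher and Mrpl12 is lower in both doxorubicin groups, and Mrpl33, Mrps23 and Mrpl20 reach 80.4, 78.8 and 94.2 CPM in doxorubicin replicate 4 only.

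Doxorubicin in the presence of histidine was compared with histidine alone, in libraries none of which enter the comparison above. Here 1 member rose and 6 fell, 8.86% of the members, against 40.2% of all genes, of which 19.9% rose and 20.3% fell. The median log2 fold change of the members was -0.14, that of all genes 0.02, and 62 of the 79 values were below 0. The 4 groups share one estimate of the spread, and without doxorubicin replicate 4, which is in neither group, 4 members rose and 17 fell (24.2% and 24.9% of all genes). Leaving out histidine replicate 3, histidine replicate 4 or replicate 5 of both compounds left 3 that fell. In 2 members every library with both compounds lay above every histidine library (16.5% of all genes), and in 9 every one lay below (18.7% of all genes).

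Mrpl49 and Mrpl12 were the members called in both comparisons, each in the same direction as before, 2.53% of the members where 31.6% of all genes were called the same way in both. Mrpl49 had 36.8 to 39.6 CPM with histidine and 53.6, 51.6, 49.9, 50.3 and 42.8 CPM with both compounds, a log2 fold change of 0.39 ± 0.09 (adjusted p = 0.00227). Mrpl12 had 49.4, 50.6, 42.8, 49.2 and 43.2 CPM with histidine and 30.2, 27.9, 33.1, 28.8 and 34.1 CPM with both, a log2 fold change of -0.61 ± 0.11 (adjusted p = 9.55e-05). In neither gene did the groups overlap. Without doxorubicin replicate 4, 9 members, or 11.4%, were called the same way in both comparisons, against 39.0% of all genes. Mrpl24, Mrpl49 and Mrpl57 were higher, and Mrpl12, Mrpl18, Mrpl21, Mrpl39, Mrps35 and the Mrpl42 locus on chromosome 13 were lower. With or without that library, 0 members were called in opposite directions.

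The other falls with both compounds were mostly smaller. Mrpl28, a large-subunit protein with a bacterial counterpart, had 27.9, 27.5, 24.2, 27.97 and 25.9 CPM with histidine and 20.02, 15.6, 20.6, 20.03 and 22.2 CPM with both, without overlap and with a log2 fold change of -0.44 ± 0.08 (adjusted p = 0.000138). With doxorubicin alone it had 23.5 ± 1.24 CPM, against 25.6 ± 1.05 CPM with PBS (SD, n = 5), a log2 fold change of -0.13 that did not pass the test (adjusted p = 0.195). Mrps24, a small-subunit protein with a bacterial counterpart, had 25.2, 13.2, 24.7, 11.2 and 9.33 CPM with histidine and 8.81, 6.498, 10.2, 8.80 and 8.81 CPM with both. Its log2 fold change was -0.96 ± 0.30 (adjusted p = 0.0152), and the histidine libraries themselves fell into a high pair and 3 lower values. The call was lost without either of that pair, at -0.76 (adjusted p = 0.0565) without histidine replicate 1 and at -0.77 (adjusted p = 0.0515) without replicate 3. Mrpl21, Mrps35 and Mrps10 were called at -0.38, -0.36 and -0.23 on the log2 scale (adjusted p = 0.0435, 0.0239 and 0.0366), and each call depended on single libraries. That of Mrps35 was lost without histidine replicate 4 (adjusted p = 0.0712) or replicate 5 with both compounds (adjusted p = 0.0587). That of Mrps10 was lost without histidine replicate 3, 4 or 5 or replicate 4 or 5 with both compounds, and that of Mrpl21 without histidine replicate 1, 3, 4 or 5 or replicate 2, 4 or 5 with both compounds, with adjusted p values up to 0.106 and 0.108.

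Promoters are shown for 4 members, the highest expressed gene (Mrpl17), a gene that rose and holds 2 of the motifs searched (Mrpl57), and the pair called in both doxorubicin comparisons (Mrpl49 and Mrpl12). Genes for mitochondrial proteins in the nucleus are known to be bound by NRF1, by the ETS factor GABP and by YY1. Windows from 250 bases before to 50 bases after the annotated start were available for 59 of the 79 members and 27457 genes in all (RefSeq, assembly GRCr8, first listed start of each gene). On either strand, the ETS letters CCGGAAG occurred in 18 of the 59 (30.5%) and in 9.22% of all windows, the NRF1 letters GCGCANGCG in 11 (18.6%) and 6.26%, and the YY1 letters AAGATGGCG in 9 (15.3%) and 1.93%. At least 1 of the 3 occurred in 30 of the 59 windows (50.8%) and in 15.5% of all. The median GC content was 55.7% in the members' windows and 52.3% in all. The 250 bases before the start are printed below, 5′ to 3′ on the strand of the gene, with the matches in capitals, for Mrpl17 at chr1:169575700-169575949 (minus strand), Mrpl57 at chr15:36086207-36086456 (plus strand), Mrpl49 at chr1:212779328-212779577 (minus strand) and Mrpl12 at chr10:106256496-106256745 (plus strand).
Mrpl17: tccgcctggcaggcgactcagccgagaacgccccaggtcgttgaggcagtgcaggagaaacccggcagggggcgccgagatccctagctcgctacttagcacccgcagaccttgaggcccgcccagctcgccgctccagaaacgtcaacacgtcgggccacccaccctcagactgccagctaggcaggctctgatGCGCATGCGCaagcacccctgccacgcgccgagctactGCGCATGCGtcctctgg
Mrpl57: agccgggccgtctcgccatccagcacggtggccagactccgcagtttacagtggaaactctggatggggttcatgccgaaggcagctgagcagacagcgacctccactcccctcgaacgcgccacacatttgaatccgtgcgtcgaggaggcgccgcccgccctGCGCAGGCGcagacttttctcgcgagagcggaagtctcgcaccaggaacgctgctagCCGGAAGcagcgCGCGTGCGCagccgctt
Mrpl49: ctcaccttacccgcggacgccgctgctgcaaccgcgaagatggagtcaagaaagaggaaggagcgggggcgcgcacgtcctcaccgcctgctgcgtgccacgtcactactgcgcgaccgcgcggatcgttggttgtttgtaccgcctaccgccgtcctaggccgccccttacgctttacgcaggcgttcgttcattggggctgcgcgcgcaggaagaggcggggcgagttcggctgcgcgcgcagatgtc
Mrpl12: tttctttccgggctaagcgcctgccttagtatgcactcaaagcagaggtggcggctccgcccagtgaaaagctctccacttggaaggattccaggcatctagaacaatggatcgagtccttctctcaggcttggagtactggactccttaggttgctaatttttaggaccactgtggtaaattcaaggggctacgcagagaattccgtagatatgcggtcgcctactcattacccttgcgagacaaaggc
Mrpl17 holds NRF1 matches at -55, -54 and -17 from the start, of which the first 2 are the same letters read on both strands with a shift of 1 base. Mrpl57 holds an ETS match at -29 and NRF1 matches at -86 and -17. In the windows of Mrpl49 and Mrpl12 none of the 3 motifs occurred, which says only that these letters are not there.

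Histidine alone changed none of the members by the test. Against PBS, 0 of 79 members passed edgeR's test (0.00% of all genes) and 0 had an unadjusted p under 0.05, where 2.02% of all genes had, and DESeq2 called 0 members (0.0324% of all genes). The median log2 fold change was 0.07. The smallest p values belonged to Dap3, a GTP-binding small-subunit protein also studied as a mediator of cell death, to Mrpl40 and to Mrpl17. Dap3 had 43.4, 47.4, 39.3, 40.8 and 47.0 CPM with PBS and 47.3, 46.5, 52.3, 50.1 and 48.1 CPM with histidine, a log2 difference of 0.17 ± 0.09 (SE, adjusted p = 1.0), and the groups overlapped. The differences were 0.15 ± 0.08 for Mrpl40 and 0.12 ± 0.08 for Mrpl17.

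Histidine added to doxorubicin was compared with doxorubicin alone, and the comparison shares its doxorubicin libraries with the first. Again 0 members passed edgeR's test (0.00% of all genes), and DESeq2 called 0 (0.129% of all genes). The unadjusted p was under 0.05 for 26 members (32.9%), against 12.6% of all genes, and the median log2 fold change was -0.23, with 71 of 79 values below 0. Without doxorubicin replicate 4, 0 passed (0.0259% of all genes), 8 members had an unadjusted p under 0.05 (10.1%, against 7.29% of all genes) and the median was -0.04, with 48 values below 0. The smallest p values were those of Mrpl34 at -0.45 ± 0.13, Mrpl28 at -0.25 ± 0.08 and Mrps24 at -0.94 ± 0.30 on the log2 scale, all with an adjusted p of 0.393. Mrpl34 had 10.4, 9.38, 11.5, 9.87 and 9.56 CPM with both compounds, against 10.8 to 20.5 CPM with doxorubicin, and the ranges overlapped. Without doxorubicin replicate 4, Mrpl34 was at -0.26 ± 0.08 and Mrpl28 at -0.24 ± 0.08, with adjusted p values of 0.523 and 0.564 by edgeR's test.

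The interaction, which asks whether the doxorubicin effect differed with histidine, gave 0 calls among the members by edgeR (0.00% of all genes) and 0 by DESeq2 (0.0971% of all genes). An unadjusted p under 0.05 was found for 11 members (13.9%), against 6.86% of all genes, and the median was -0.29 on the log2 scale. Without doxorubicin replicate 4 it was found for 7 (8.86%, against 6.24% of all genes), again with 0 calls (0.00% of all genes), and the median was -0.11. With all libraries, the smallest p values were again those of Mrpl34 at -0.54 ± 0.18, Mrpl28 at -0.31 ± 0.11 and Mrps24 at -1.15 ± 0.42, each with an adjusted p of 0.631. Without replicate 4, Mrpl34 was at -0.35 ± 0.11 and Mrpl28 at -0.30 ± 0.11, each with an adjusted p of 0.777 by edgeR's test.

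By class, the calls fell in both subunits. With doxorubicin alone 10 of 48 large-subunit genes rose and 1 fell, and 2 of 27 small-subunit genes rose and 1 fell, with medians of 0.23 and 0.11 on the log2 scale. Over all genes 21.7% rose and 21.5% fell, with a median of 0.05. Without replicate 4 the large subunit had 5 that rose and 5 that fell and the small subunit 1 and 4, with medians of -0.03 and -0.07, where 22.9% of all genes rose and 24.4% fell. In the same setting, 3 of the 46 genes with a bacterial counterpart rose and 5 fell, and 3 of the 29 genes found only in mitochondria rose and 4 fell. Mrps17, whose direction is uncertain, was the 1 small-subunit fall with all libraries and was also among the falls without replicate 4. Whether the classes differ from each other was not tested. Mrps36 was at 0.41 (adjusted p = 0.378) with all libraries and at -0.18 (adjusted p = 0.621) without replicate 4.

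Of the mitoribosomal proteins whose table names fall outside the rule, 4 were found by symbol. Mrpl52, Mrpl53 and Aurkaip1 were looked for and not found by symbol, so no levels are given for them. Mrpl58, a peptide release factor that is also part of the large subunit, was lower with doxorubicin than with PBS by a log2 fold change of -0.25 ± 0.09 (adjusted p = 0.0343) and lower with both compounds than with histidine by -0.32 ± 0.09 (adjusted p = 0.00956). Gadd45gip1, a large-subunit protein also known as a nuclear cofactor, was at 0.36 (adjusted p = 0.0615) with doxorubicin and at 0.10 (adjusted p = 0.217) without replicate 4. Chchd1 was at 0.74 (adjusted p = 0.137) and, without replicate 4, at -0.26 (adjusted p = 0.0250). Ptcd3, a small-subunit protein that binds RNA, was at -0.02 (adjusted p = 0.914).

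Most genes of the lists around the ribosome did not pass the test for doxorubicin against PBS, for which 21.7% of all genes rose and 21.5% fell, with a median log2 fold change of 0.05. Of 26 genes for assembly and ribosomal RNA modification, 3 rose and 1 fell, with a median log2 fold change of 0.12. Dhx30, an RNA helicase of mitochondrial RNA granules, rose by 0.31 ± 0.07 (adjusted p = 0.000659), Ybey, an endoribonuclease, by 0.42 (adjusted p = 0.00603) and Fastkd2, which binds the large ribosomal RNA, by 0.42 (adjusted p = 0.0215), while Mettl17, an assembly factor of the small subunit, was lower, at -0.45 ± 0.13 (adjusted p = 0.00797). Fastkd2 did not pass without replicate 4, at 0.29 (adjusted p = 0.0680). The other 3 were called in the same directions with both compounds against histidine. Of 18 translation factors 3 rose and 0 fell, with a median of 0.10. Among them Taco1, an activator of Cox1 translation, was at 0.47 (adjusted p = 0.00734), Mtif3, an initiation factor, at 0.23 (adjusted p = 0.0322) and Slirp, an RNA-binding protein, at 1.13 (adjusted p = 0.0263), the last becoming 0.14 (adjusted p = 0.242) without replicate 4.

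Of 16 mitochondrial aminoacyl-tRNA synthetases, which charge the tRNAs the ribosome uses, 3 rose and 1 fell, with a median of 0.08, beside 21.7% and 21.5% of all genes. Wars2 rose by 0.50 ± 0.09 (adjusted p = 0.000137), Iars2 by 0.24 ± 0.05 (adjusted p = 0.000732) and Nars2 by 0.31 (adjusted p = 0.0157), and all 3 also rose with both compounds against histidine. Aars2, which shares its span with Mrpl14, was at -0.39 (adjusted p = 0.00955). Of 16 genes for mitochondrial transcription and RNA processing, a list that also holds enzymes of mitochondrial DNA replication, 4 rose and 2 fell, with a median of 0.24. Twnk, the mitochondrial DNA helicase, rose by 0.41 ± 0.06 (adjusted p = 2.2e-05) and Pnpt1, a polynucleotide phosphorylase, by 0.39 ± 0.07 (adjusted p = 0.000161), whereas Polg, the mitochondrial DNA polymerase, was at -0.33 ± 0.09 (adjusted p = 0.00487).

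Without doxorubicin replicate 4, 2 of the assembly genes rose and 1 fell, 2 of the translation factors rose and 0 fell, 3 of the synthetases rose and 2 fell, and 4 of the transcription and RNA processing genes rose and 2 fell, where 22.9% of all genes rose and 24.4% fell. With both compounds against histidine the counts of rises and falls were 2 and 1 for assembly, 1 and 2 for translation factors, 3 and 1 for synthetases and 2 and 1 for transcription and RNA processing, where 19.9% of all genes rose and 20.3% fell, and the lists' medians lay between -0.05 and 0.03 on the log2 scale. Doxorubicin replicate 4 is in neither group of that comparison but shares its estimate of spread, and without it the counts were 2 and 3, 2 and 2, 3 and 2, and 3 and 5, in the same order of lists, against 24.2% and 24.9% of all genes.

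Of 9 regulators of mitochondrial biogenesis 0 rose and 3 fell, beside 21.7% and 21.5% of all genes, and the counts were 0 and 3 without doxorubicin replicate 4 as well. Myc, a transcription factor that acts on many ribosomal and mitochondrial genes, was at -0.64 ± 0.09 (adjusted p = 6e-06), falling from 63.2 ± 3.71 CPM to 40.4 ± 5.84 CPM (SD, n = 5). Ppargc1b, a coactivator of mitochondrial biogenesis, was at -1.17 ± 0.23 (adjusted p = 0.000409), and both were lower with both compounds than with histidine as well. The third, Pprc1, was at -0.21 ± 0.08 (adjusted p = 0.0300). Without replicate 4 Myc was at -0.56 (adjusted p = 6.22e-07), Ppargc1b at -1.15 (adjusted p = 0.000901) and Pprc1 at -0.13 (adjusted p = 0.0337). Of the 13 mitochondrially encoded mRNAs, the templates of this ribosome, 0 were called in either direction, with a median of -0.06, 1 having an unadjusted p under 0.05, and 1 fell without replicate 4. With both compounds against histidine 0 of the 13 were called as well, with a median of -0.10 and none under an unadjusted p of 0.05.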

How the data were processed

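Polyadenylated RNA of 20 libraries was selected with oligo(dT) beads, broken into pieces and primed with random hexamers without a strand mark, per the labels' protocols. Per the submitters' processing notes, Trimmomatic and mRatBN7.2 were used. The aligner, counter and gene annotation were not given in the sources used here. Raw read counts per gene, as whole numbers, were deposited together with FPKM values that the authors scaled to gene length and library reads, per the file headers. The column of each sample was found by its library name, and 0 columns were left without a sample. Entries without a gene identifier numbered 0, and 10508 of the 15503 genes could be given a symbol.

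Counts were filtered with edgeR's filterByExpr (15449 genes left, all 79 members among them) and scaled by TMM. The main test was edgeR 4.0.16 (R 4.3.3), quasi-likelihood F test, in 1 fit of the 4 groups, with Benjamini-Hochberg adjustment over all genes tested and a threshold of 0.05. The SE was obtained from the log2 fold change and F. Levels are TMM-scaled CPM between groups and FPKM between genes. The procedure was also run on simulated counts, drawn independently for each library. These held no shift like that of doxorubicin replicate 4, so they cannot show how the calls behave with such a library.

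Alternatives were DESeq2 1.42.0, RLE factors, library totals only, no filter, only the groups compared, each library left out, doxorubicin replicates 3 and 4 left out, a replicate block, limma 3.58.1 on log2(FPKM + 1) with a pseudocount of 1, and FPKM in place of CPM for the sums. All 40 pairs within groups differed beyond sampling noise. Symbols came from the protein names and a GRCr8 gene table, promoters from RefSeq; coordinates of genes are those of the deposited table. Genes were named by a rule that took the largest called changes with doxorubicin, the smallest p values elsewhere, the highest and lowest levels, calls that depend on doxorubicin replicate 4, members with second roles, and called genes of each list. Genes that stand apart in a library or share reads with a neighbour were named after their values were seen, and so were the 4 promoters. The members and lists were chosen with earlier results of these data known.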

Additional observations from a re-analysis of the deposited data

Results flagged for a closer look

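In doxorubicin replicate 4, 42 of the 79 members stood apart from the other 4 doxorubicin libraries by the gap to the nearest library over the whole range of the group (above Dixon's critical value, which chance passes in about 1 of 20 groups). In all, 66 members' values in 316 groups were marked in this way, and no other library had more than 3. Among the named members that library was high for Mrpl12 (44.5 CPM), Mrpl18 (52.6 CPM), Mrpl20 (94.2 CPM), Mrpl21 (22.1 CPM), Mrpl24 (39.3 CPM), Mrpl27 (48.2 CPM), Mrpl32 (36.7 CPM), Mrpl33 (80.4 CPM), Mrpl34 (20.5 CPM), Mrpl36 (34.9 CPM), Mrpl47 (29.4 CPM), Mrpl49 (74.4 CPM) and Mrpl57 (33.3 CPM). It was also high for Mrps23 (78.8 CPM), Mrps35 (18.6 CPM), Mrps36 (30.3 CPM) and the Mrpl42 locus on chromosome 13 (21.0 CPM).

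Mrps17 stood apart in 3 groups, at 20.1 CPM in histidine replicate 2, at 0.716 CPM in doxorubicin replicate 4 and at 22.9 CPM in replicate 4 with both compounds, and its reads cannot be told apart from those of the gene model that spans it. Single libraries were high for Mrps24 in PBS replicate 2 (24.9 CPM), Mrpl39 in PBS replicate 4 (21.5 CPM), Mrps30 in histidine replicate 4 (36.8 CPM), Mrpl41l1 in histidine replicate 5 (0.581 CPM) and Mrpl47 in replicate 2 with both compounds (22.2 CPM). They were low for Mrpl10 in histidine replicate 5 (30.9 CPM) and Mrps35 in replicate 5 with both compounds (10.1 CPM). The cause of these values was not tested.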

How the results depend on the processing

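Of 21 calls of a member in the 2 doxorubicin comparisons, 10 were kept under every alternative run (Mrpl12 and Mrpl49 in both comparisons; Mrpl24, Mrpl34, Mrpl36, Mrpl57 and Mrps18b with doxorubicin alone; Mrpl28 with both compounds), and 0 were reversed. With doxorubicin against PBS, the main count of 12 that rose became 19 with library totals only and 6 without doxorubicin replicates 3 and 4, and it ran from 6 to 17 with each library left out in turn. The 2 that fell became 1 with DESeq2, with limma on FPKM and with only the groups compared, 9 without doxorubicin replicates 3 and 4, and from 1 to 10 with each library left out. With both compounds against histidine, the 1 that rose became 3 with library totals only and with only the groups compared, 4 with limma and without doxorubicin replicates 3 and 4, and from 1 to 4 with each library left out. The 6 that fell became 15 with only the groups compared, 17 without doxorubicin replicates 3 and 4, and from 3 to 17 with each library left out. The 6 and the 10 with doxorubicin and the 4 and the 17 with both compounds came without doxorubicin replicate 4. The 17 that rose with doxorubicin came without doxorubicin replicate 2, and the 3 that fell with both compounds came without histidine replicate 3 or 4, or replicate 5 of both compounds. The cause was not tested. The replicate block gave 10 that rose and 3 that fell with doxorubicin, and 1 and 7 with both compounds; the block lost the rises of Mrpl33 (adjusted p = 0.101) and Mrps23 (adjusted p = 0.055) and gained the fall of Mrps9 (-0.35, adjusted p = 0.0357). No label ties same-numbered libraries to a shared culture or day, and the correlation of their deviations ran from -0.085 to 0.315 and was above 0.1 in 6 of 30 pairs, so the block is not the main fit. As a hint from the data, 12 of the 30 pairs were the best match of their library, and replicate 3 was above 0 in all 6 of its pairs (0.094 to 0.315). Under every alternative run, 0 members were called for histidine against PBS, for both compounds against doxorubicin and for the interaction. The ratio of summed levels, doxorubicin over PBS, was 1.15 for the large subunit, 1.20 with FPKM and 1.00 without replicate 4.

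Limits: whether depth or the spread within a group limits the calls was not tested, and the weakly expressed second loci lie under 1 CPM. Whether reads were split between overlapping or near-identical genes was not tested beyond the sum for Mrps17.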
